A study of Mus musculus with 12 samples.

Results

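The genes described here carry glucose into the cell, split it to pyruvate, decide whether pyruvate becomes lactate or enters the mitochondrion, and sense or answer low oxygen. They were followed in mouse embryonic stem cells of the 129SvEv strain at 3 and 6 h after addition of Activin A. The members were a list of 40 gene symbols, of which those with a mean of at least 1 FPKM over the 12 libraries were kept. FPKM is the number of fragments scaled to transcript length and to library size. By this rule 37 of the 40 genes were kept, out of 13508 named genes in the table. Eno2, the neuronal enolase, had a mean of 0.689 FPKM and Ldha, the muscle-type lactate dehydrogenase, a mean of 0.465 FPKM, and no named row stood for Pdha1, a subunit of pyruvate dehydrogenase. The Ldha row covers a share of 0.047 of the annotated gene, so it does not stand for the level of that transcript.

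There were 6 groups with 2 cell lines each and 1 library per line. The wild type (WT) lines were 18 and 26. The Arkadia -/- lines, called null here, were 25 and 39 and lack the ubiquitin ligase encoded by Rnf111. All lines had been kept in 2i medium with LIF and were moved to fibronectin in N2B27 medium for 24 h, and every dish was then held in 10 µM of SB431542, an inhibitor of the receptor kinases for Activin, for 4 h. The SB dish was harvested at that point. The Activin dishes were washed and received N2B27 with 10 ng/ml Activin A for 3 h or 6 h. A dish given fresh medium alone is not among the groups, so effects of Activin, of inhibitor removal, of new medium and of time in culture cannot be told apart. The labels do not say whether the lines of a genotype are independent clones, so the p-values measure the spread between these lines, which is all that n = 2 stands for below.

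Rnf111 read 3.19 to 4.27 FPKM in the WT libraries and 0.539 to 0.855 FPKM in the null libraries. All 10 embryonic stem cell markers on the marker list were above 1 FPKM on average, and their summed level in WT lines was 1789 to 1837 FPKM in SB, 2363 to 2391 FPKM at 3 h and 2269 to 2291 FPKM at 6 h. In null lines it was 1778 to 2095, 2118 to 2356 and 2134 to 2463 FPKM, and Dppa5a, with a mean of 827 FPKM, led these sums. In the test described below, 2 of these markers rose and 5 fell in WT lines at each time. Of all genes 12.6% rose and 9.83% fell at 3 h, and 9.59% and 6.31% at 6 h. In null lines 0 rose and 2 fell at 3 h, beside 6.50% and 7.14% of all genes. At 6 h 1 rose and 5 fell, beside 7.87% and 5.53%. Some stem cell markers thus moved with the treatment as well, and their part in the results was not tested. Summed fibroblast markers read 11.05 to 21.4 FPKM, neural progenitor markers 4.34 to 8.88 FPKM, primitive endoderm markers 3.23 to 6.10 FPKM and trophoblast markers 34.7 to 61.8 FPKM, the last led by the keratin gene Krt8. The FPKM summed over 1 locus per named gene, tested or not, moved with the treatment. It was 550886 to 689709 in SB, 679576 to 751745 at 3 h and 641957 to 771513 at 6 h, and null line 39 had the highest sum in each treatment. With FPKM divided by a median-ratio size factor per library, 77 of the 79 results on members kept their direction and their side of the threshold. These factors ran from 0.993 to 1.02, so the scaling hardly altered the values and does not address the shift in summed FPKM.

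As background, glucose enters most cells through transporters of the GLUT family and is trapped by hexokinase, and phosphofructokinase sets the pace of the later steps to pyruvate. Pluripotent stem cells are known for a high rate of glycolysis and for sending much of the pyruvate to lactate even with oxygen present. Under low oxygen the transcription factor HIF-1 is stabilised and raises many of these same genes, together with genes of mitophagy, collagen hydroxylation and oxygen sensing. Txnip, whose transcription follows glucose supply, acts in the other direction and restrains glucose uptake.

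Of the 37 genes, 36 entered the test. Kdm3a was left out because its value in WT line 26 in SB carried a failed status. For each gene log2(FPKM + 1) was fitted with limma across the 6 groups, and a gene is said to have risen or fallen where the p-value adjusted by Benjamini-Hochberg over 12823 genes was under 0.05. Every fold change below is on that log2(FPKM + 1) scale and is negative where Activin was lower.

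In WT lines at 3 h of Activin 14 of the 36 genes fell and 0 rose against SB, while 9.83% of all tested genes fell and 12.6% rose. At 6 h 15 genes fell and 0 rose, against 6.31% and 9.59% of all genes. In null lines 10 genes fell and 0 rose at 3 h, against 7.14% and 6.50% of all genes, and 15 fell and 0 rose at 6 h, against 5.53% and 7.87%. Under quantile normalization 1372 genes of all rose and 1699 fell in WT lines at 3 h, in place of 1622 and 1260, and 1160 rose and 1328 fell at 6 h, in place of 1230 and 809. Both times share the SB libraries of their genotype, so the counts at 3 and 6 h are not independent. The median change of the 36 genes was -0.21 and -0.20 in WT lines at 3 and 6 h and -0.20 and -0.23 in null lines, while the median of all genes lay at -0.01, 0.02, -0.01 and 0.01. At an unadjusted p under 0.05 in limma, members above SB numbered 2 and 3 in WT lines at 3 and 6 h and 0 and 2 in null lines, where 20.3%, 20.2%, 15% and 18.2% of all genes were above it. With the cell line as a block, limma called 2 and 3 members higher in WT lines and 3 and 3 in null lines, where 21.3%, 21.6%, 15.5% and 19.4% of all genes rose. The block gave 18, 18, 16 and 17 falling members, against 15.9%, 12.3%, 14.1% and 12% of all genes.

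Genes that fell were compared between the genotypes. All 10 genes that fell in null lines at 3 h also fell in WT lines, where they made up 71.4% of the 14. At 6 h 13 genes fell in both, which is 86.7% of either list of 15. Over all tested genes, those that fell in both genotypes made up 47.7% of the WT list and 65.7% of the null list at 3 h, and 60.2% and 68.7% at 6 h. The difference between the members and all genes in these shares was not tested. Without any test, 21 of the 36 genes were below SB in all 4 lines at 3 h and 4 were above in all 4, against 29.4% and 27.3% of all genes. At 6 h these counts were 18 below and 6 above, against 27.6% and 32.5%.

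The number of calls depended on which lines were kept, for the members and for all genes alike. With WT line 18 left out, Slc2a1 was the member still called in WT lines at 3 h and at 6 h, where 1.12% and 0.912% of all genes were called. With WT line 26 left out, Slc2a1 and Pdk1 were still called at 3 h and Slc2a1 at 6 h, beside 1.07% and 0.694% of all genes. Leaving out either WT line took the null calls to 4 at 3 h, beside 1.9% of all genes, and to 3 at 6 h, beside 2.99% and 3.01%. Without null line 25 the null calls were 4 and 8 (3.46% and 11% of all genes), and without null line 39 they were 13 and 12 (16% and 13.9%). Leaving out either null line took the WT calls to 20 and 19, beside 34% of all genes at 3 h and 30.3% and 30.4% at 6 h. With 1 line left in a genotype its spread is borrowed from the other genotype. Of 61 called changes of members, 8 were called under every alternative tried, including each line left out: Slc2a1 in all 4 comparisons of Activin with SB, Txnip at both times and Pdk1 at 3 h in null lines, and Pfkl at 6 h in null lines.

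**Figure D1:**
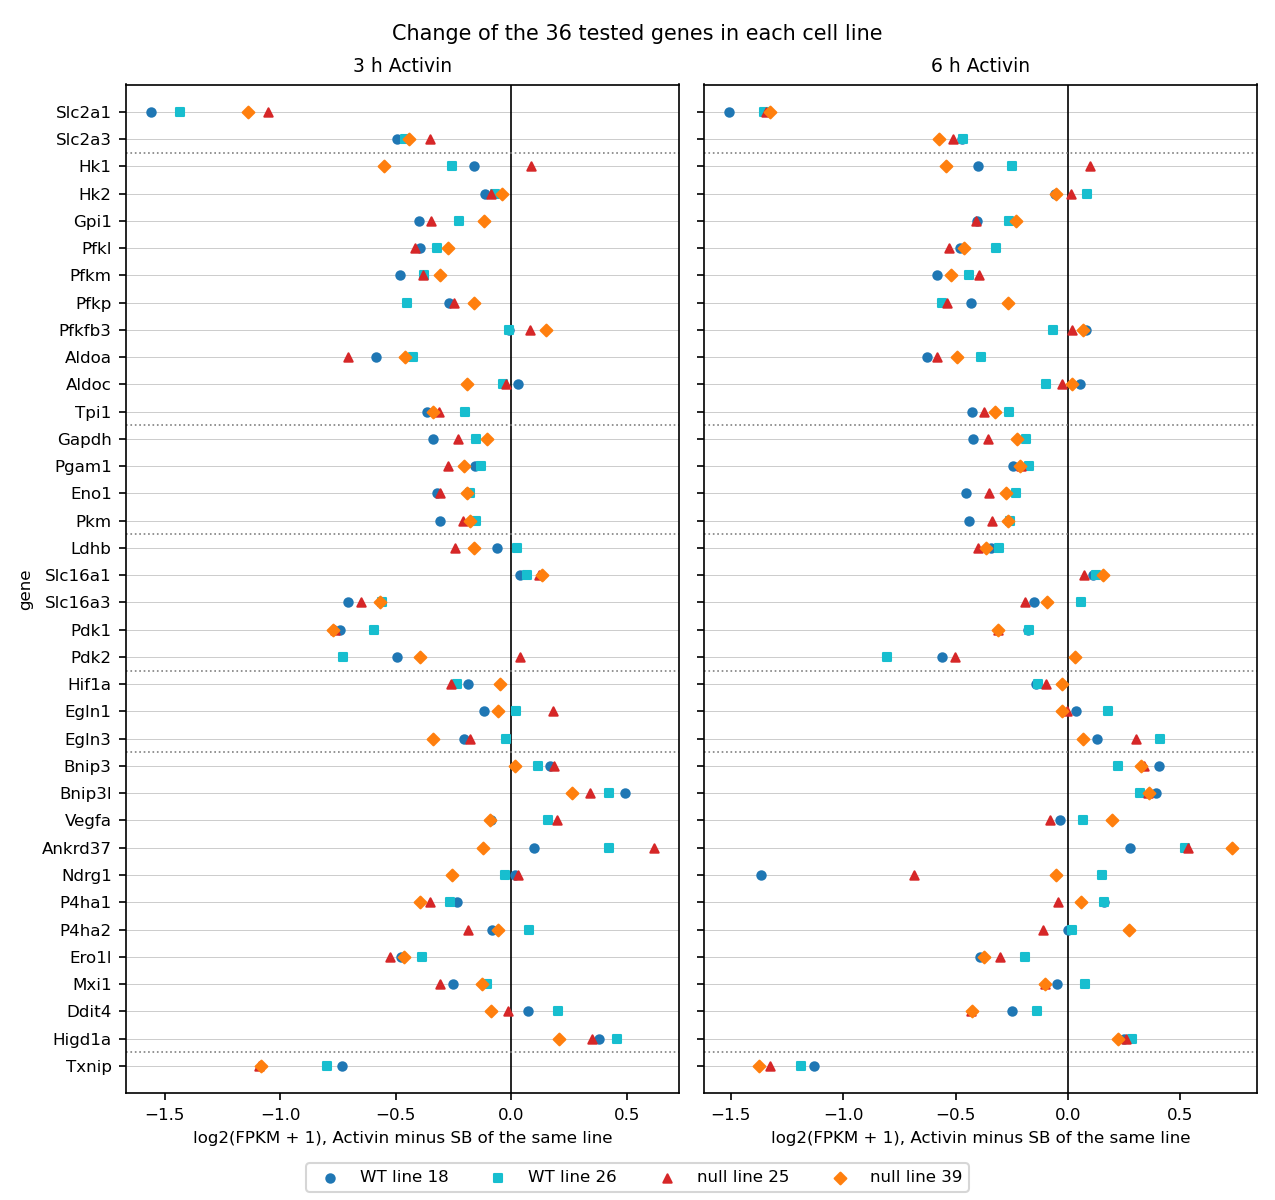
Difference in log2(FPKM + 1) between Activin and SB within each cell line for the 36 tested genes, at 3 h (left) and 6 h (right), with dotted lines between groups of genes by role. Blue circles and squares are WT lines 18 and 26, and red triangles and orange diamonds are null lines 25 and 39. Slc2a1 and Txnip lie farthest to the left in every line at 6 h except for Ndrg1 in WT line 18, and Bnip3, Bnip3l, Higd1a and Slc16a1 lie right of 0 in all 4 lines at both times, though under quantile normalization the change of Bnip3 at 3 h was -0.06 in WT and -0.01 in null lines.

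The 4 members with the largest changes in WT lines at 3 h were Slc2a1, Txnip, Pdk1 and Slc16a3. Their promoters, the 250 bases before the RefSeq start on the gene's strand in GRCm38.p6, are shown because these changes were the largest. Capitals mark each ACGTG or GCGTG read on either strand, the core letters that HIF-1 is known to bind. The windows are chr4:119108495-119108744 for Slc2a1, chr3:96557707-96557956 for Txnip, chr2:71872974-71873223 for Pdk1 and chr11:120948817-120949066 for Slc16a3, all on the + strand.
Slc2a1: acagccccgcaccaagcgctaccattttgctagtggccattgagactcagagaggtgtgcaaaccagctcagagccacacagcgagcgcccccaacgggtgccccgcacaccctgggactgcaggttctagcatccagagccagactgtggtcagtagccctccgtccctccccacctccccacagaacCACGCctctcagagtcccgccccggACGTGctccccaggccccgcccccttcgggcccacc
Txnip: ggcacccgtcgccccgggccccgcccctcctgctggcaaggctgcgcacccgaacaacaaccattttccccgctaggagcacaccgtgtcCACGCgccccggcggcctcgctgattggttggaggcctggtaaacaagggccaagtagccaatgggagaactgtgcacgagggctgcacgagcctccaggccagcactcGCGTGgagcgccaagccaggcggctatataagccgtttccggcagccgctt
Pdk1: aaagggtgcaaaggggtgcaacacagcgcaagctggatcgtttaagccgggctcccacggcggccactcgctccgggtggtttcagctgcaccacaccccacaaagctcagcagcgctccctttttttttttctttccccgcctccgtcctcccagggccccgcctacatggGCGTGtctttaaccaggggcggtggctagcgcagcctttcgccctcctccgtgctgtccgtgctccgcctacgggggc
Slc16a3: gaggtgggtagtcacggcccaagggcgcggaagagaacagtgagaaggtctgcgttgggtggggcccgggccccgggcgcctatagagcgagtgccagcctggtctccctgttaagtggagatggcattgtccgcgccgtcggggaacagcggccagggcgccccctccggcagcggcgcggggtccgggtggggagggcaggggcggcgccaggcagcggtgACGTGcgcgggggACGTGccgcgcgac
Slc2a1 and Txnip held 2 matches each, Pdk1 1 and Slc16a3 2. The pair of matches was ACGTG in both cases for Slc16a3, GCGTG in both for Txnip, and 1 of each for Slc2a1. Over the 32 tested members with a RefSeq promoter entry, 27 (84.4%) held at least 1 ACGTG or GCGTG, while 57.7% of the 9100 tested genes with an entry did. The shares with ACGTG, whether or not GCGTG was also present, were 53.1% and 22.1%. Those with GCGTG, counted likewise, were 62.5% and 46.8%. The E-box CACGTG, which contains ACGTG on both strands, stood in 15.6% of the members and 8.56% of all genes. The list was drawn from glycolysis and hypoxia genes, many of which HIF-1 is known to raise. The higher shares than in all genes are no result of these data. The part of this choice of genes, and of base composition, in the higher shares was not tested. Among the 12 members with an entry that fell in WT lines at 3 h, 10 (83.3%) held ACGTG or GCGTG, near the 84.4% of all tested members. A match is a run of letters in this window and shows no binding.

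Both glucose transporters fell. Slc2a1, the widely expressed GLUT1 (chr4:119108737-119137473, mm10), read 133 and 131 FPKM in SB in WT lines 18 and 26, 44.7 and 48.0 FPKM at 3 h, and 46.3 and 50.8 FPKM at 6 h. The levels in null lines 25 and 39 were 116 and 110 FPKM in SB, 55.2 and 49.2 FPKM at 3 h, and 45.0 and 43.1 FPKM at 6 h. Every Activin library was below every SB library, whatever the genotype. The level at 3 h was 35.0% of SB in WT lines and 46.4% in null lines, and at 6 h it was 36.7% and 39.1%. The log2 changes in WT lines were -1.49 (SE 0.0759, limma adjusted p = 6.7e-06) at 3 h and -1.43 (adjusted p = 1.1e-05) at 6 h. In null lines they were -1.10 (adjusted p = 7.6e-05) and -1.33 (adjusted p = 2.2e-05).

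Slc2a3, the high-affinity GLUT3, read 26.5 and 26.0 FPKM in SB in WT lines, 18.5 and 18.6 FPKM at 3 h, and 18.8 and 18.6 FPKM at 6 h. Lines 25 and 39, the null lines, had 35.1 and 32.1 FPKM in SB, 27.3 and 23.4 FPKM at 3 h, and 24.3 and 21.2 FPKM at 6 h. It was thus lower in Activin within each genotype, while the null libraries lay above the WT libraries of the same treatment throughout. The log2 changes in WT lines were -0.48 (limma adjusted p = 0.0091) and -0.47 (adjusted p = 0.012) at 3 and 6 h, and in null lines -0.40 (adjusted p = 0.023) and -0.54 (adjusted p = 0.0065). Since Slc2a1 fell further than Slc2a3, the ratio of their FPKM, which is per length, went down in every line. In WT lines 18 and 26 the ratio was 5.04 and 5.04 in SB, 2.41 and 2.57 at 3 h and 2.46 and 2.74 at 6 h. In null lines 25 and 39 it was 3.29 and 3.42 in SB, 2.02 and 2.11 at 3 h and 1.85 and 2.04 at 6 h.

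Txnip, the brake on glucose uptake (chr3:96557957-96561890), fell alongside the transporters. It read 63.7 and 68.1 FPKM in SB in WT lines, 37.9 and 38.7 FPKM at 3 h, and 28.6 and 29.4 FPKM at 6 h. The 2 null lines, 25 and 39, read 73.9 and 89.8 FPKM in SB, 34.2 and 41.9 FPKM at 3 h, and 28.9 and 34.0 FPKM at 6 h. The SB and Activin libraries did not overlap in either genotype, and each line was lower at 6 h than at 3 h. The log2 changes were -0.76 (SE 0.122, limma adjusted p = 0.0046) and -1.16 (adjusted p = 0.00054) in WT lines and -1.09 (adjusted p = 0.0012) and -1.35 (adjusted p = 0.00029) in null lines. The step from 3 to 6 h was -0.39 in WT lines (limma adjusted p = 0.14, or 0.0067 with the line as a block) and -0.26 in null lines (adjusted p = 0.25, or 0.012 with the block).

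**Figure D2:**
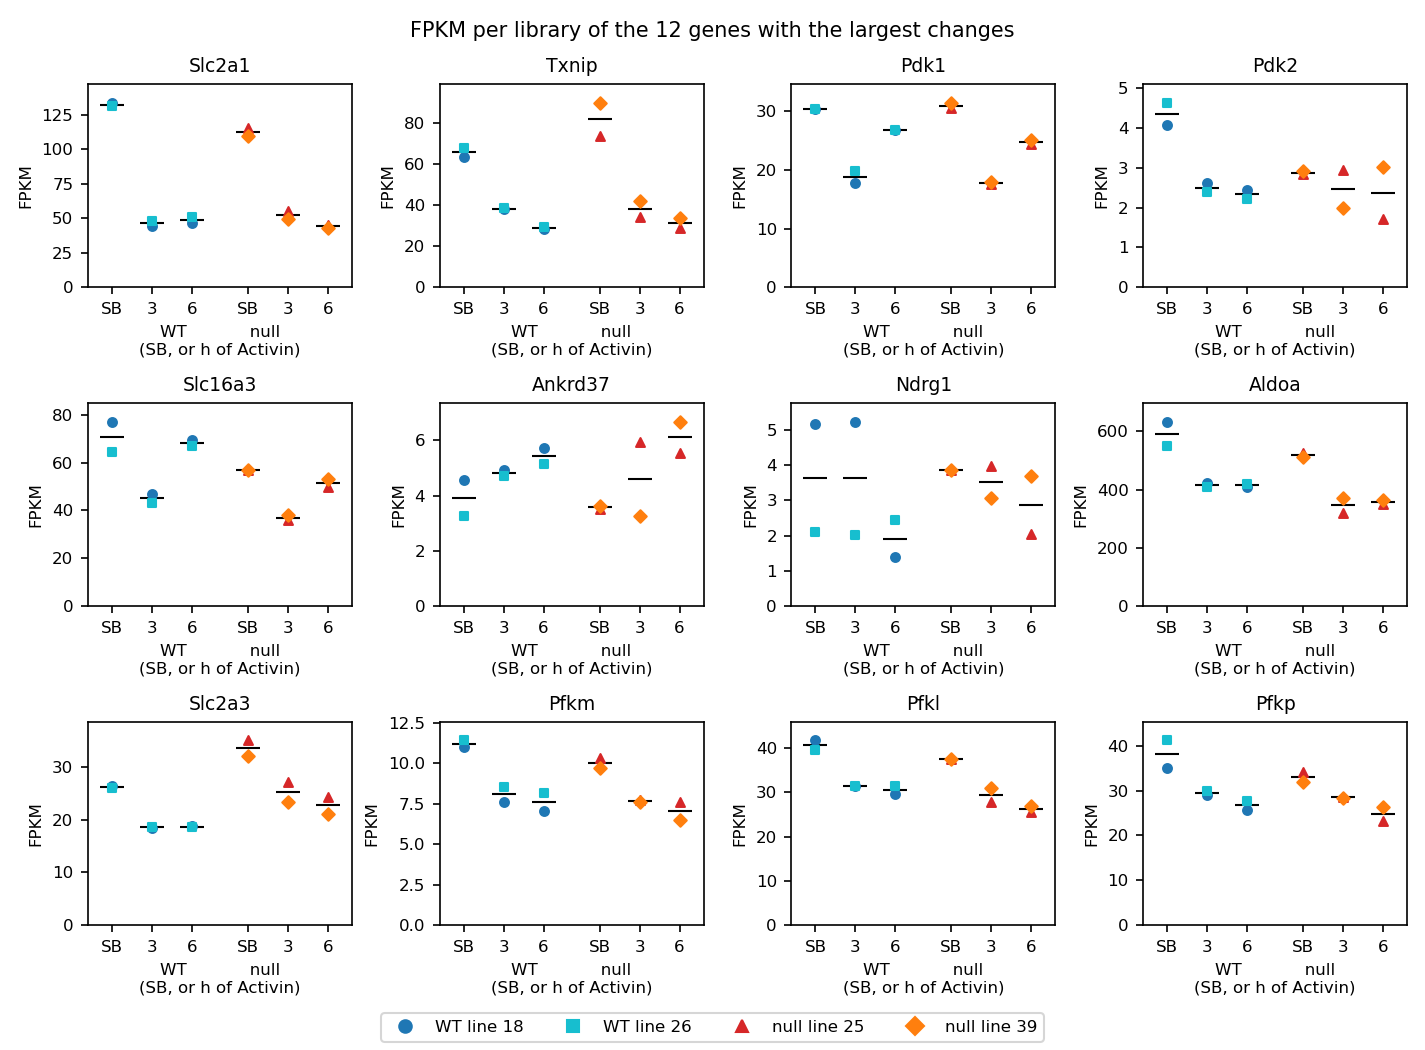
FPKM in each library of the 12 genes with the largest changes in any comparison of Activin with SB, from 0 upwards, for WT lines on the left and null lines on the right of each panel. Symbols are cell lines as named in the legend and the bars are means of the 2 lines. Slc2a1 drops from 110 to 133 FPKM in SB to 43.1 to 55.2 FPKM in Activin, while Pdk1 and Slc16a3 are lowest at 3 h.

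In the upper part of glycolysis the genes for the main aldolase, for phosphofructokinase and for Gpi1 fell, and the hexokinases were not called. This group had 10 tested members, of which 5 fell in WT lines at 3 h and 6 at 6 h, beside 9.83% and 6.31% of all genes. In null lines 3 and 5 fell, beside 7.14% and 5.53% of all genes. Aldoa, the main aldolase here, read 633 and 548 FPKM in SB in WT lines, 421 and 408 FPKM at 3 h, and 409 and 419 FPKM at 6 h. Null lines 25 and 39 read 524 and 511 FPKM in SB, 321 and 372 FPKM at 3 h, and 350 and 363 FPKM at 6 h. The SB libraries were the highest in both genotypes, and the level at 6 h was 70.1% of SB in WT and 68.8% in null lines. The log2 changes were -0.50 (limma adjusted p = 0.0089) and -0.51 (adjusted p = 0.010) in WT lines and -0.58 (adjusted p = 0.0068) and -0.54 (adjusted p = 0.0087) in null lines. Its paralog Aldoc stayed within 14.3 to 17.9 FPKM in all 12 libraries and was not called, so that the ratio of Aldoa to Aldoc was 28.8 to 42.0 in SB and 20.2 to 29.3 in Activin.

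The phosphofructokinase genes encode the liver (Pfkl), muscle (Pfkm) and platelet (Pfkp) forms of the pace-setting enzyme. Pfkl read 41.8 and 39.6 FPKM in SB in WT lines, 31.5 and 31.4 FPKM at 3 h, and 29.7 and 31.4 FPKM at 6 h. The corresponding null values were 37.5 and 37.6 FPKM in SB, 27.8 and 30.9 FPKM at 3 h, and 25.7 and 26.97 FPKM at 6 h. All Activin libraries were below all SB libraries. Pfkm read 11.01 and 11.4 FPKM in SB in WT lines, 7.61 and 8.55 FPKM at 3 h, and 7.03 and 8.15 FPKM at 6 h. The null lines read 10.3 and 9.70 FPKM in SB, 7.71 and 7.63 FPKM at 3 h, and 7.63 and 6.46 FPKM at 6 h. Here too the SB libraries stood above all others. The log2 changes of Pfkl at 3 and 6 h were -0.36 and -0.40 in WT lines and -0.35 and -0.50 in null lines, with limma adjusted p from 0.0022 to 0.013. Those of Pfkm were -0.43 and -0.51 in WT lines and -0.35 and -0.46 in null lines, with adjusted p from 0.011 to 0.047.

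Pfkp read 35.0 and 41.2 FPKM in SB in WT lines, 28.9 and 29.9 FPKM at 3 h, and 25.7 and 27.6 FPKM at 6 h. The corresponding null values were 34.1 and 31.9 FPKM in SB, 28.6 and 28.4 FPKM at 3 h, and 23.2 and 26.3 FPKM at 6 h. The groups did not overlap within a genotype. It fell in WT lines by 0.36 and 0.50 on the log2 scale (limma adjusted p = 0.025 and 0.0094) and in null lines at 6 h by 0.40 (adjusted p = 0.023). The change of -0.20 in null lines at 3 h was not called. The locus behind Pfkp covers a share of 0.005 of the annotated gene and is also listed for Pitrm1, so this value is uncertain. Pitrm1 itself fell in WT lines at 3 h by 0.29 (limma adjusted p = 0.0496). Its changes were -0.28 in WT lines at 6 h and -0.19 and -0.28 in null lines, with adjusted p from 0.067 to 0.18.

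Gpi1, which converts glucose phosphate to fructose phosphate, fell in WT lines at both times (log2 -0.31 and -0.33, limma adjusted p = 0.020 and 0.019) and in null lines at 6 h (-0.32, adjusted p = 0.024). Its change in null lines at 3 h was -0.23 (adjusted p = 0.066, or 0.044 with the block). The Gpi1 locus is also listed for Gm26762, which averaged 34.6 FPKM, so reads may be split between them. Tpi1, the triose phosphate isomerase, fell in WT lines at 6 h by 0.35 on the log2 scale (adjusted p = 0.047). Its other changes were -0.28 to -0.35 with adjusted p from 0.051 to 0.070, and with the block they had adjusted p from 0.0044 to 0.0068. The genes at the entrance were low and uneven. Hk2 read 7.83 to 9.31 FPKM and changed by -0.09 to 0.01, while Hk1 read 1.44 to 3.20 FPKM and was below SB in both WT lines and in null line 39 but above it in null line 25. Pfkfb3, which makes the activator of phosphofructokinase, read 1.39 to 1.77 FPKM. None of these 3 genes was called in any comparison of Activin with SB, with or without the block.

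The lower enzymes were, with Aldoa, the most abundant members per length, and their levels lay below SB. Pkm, the pyruvate kinase, had a mean of 461 FPKM, Gapdh 407 FPKM, Eno1, an enolase, 352 FPKM and Pgam1, the phosphoglycerate mutase, 333 FPKM. In WT lines 1 of the 4 fell at 3 h, namely Eno1 (log2 -0.25, limma adjusted p = 0.049), and 3 fell at 6 h. In null lines 0 fell at 3 h, where 3 of the 4 had an unadjusted limma p under 0.05 beside 31.7% of all genes, and 3 fell at 6 h. Of all genes 9.83% and 6.31% fell in WT lines at 3 and 6 h, and 7.14% and 5.53% in null lines. The called changes at 6 h were -0.30 and -0.29 for Gapdh, -0.34 and -0.31 for Eno1 and -0.35 and -0.30 for Pkm in WT and null lines, with adjusted p from 0.016 to 0.043. Uncalled changes at 3 h that were called with the block were those of Gapdh and Pkm in WT lines (-0.24 and -0.23, adjusted p = 0.052 for both, or 0.029 and 0.016 with the block) and of Eno1 and Pkm in null lines (-0.25 and -0.19, adjusted p = 0.063 and 0.11, or 0.023 and 0.037 with the block). Pgam1 changed by -0.14 to -0.24 and was not called, though all 4 of its changes were called with the block (adjusted p from 0.0077 to 0.032). In each of the 4 lines all 4 genes were below SB at both times. Pkm, for example, was at 78.4% of SB at 6 h in WT and 81.2% in null lines. These enzymes have processed pseudogenes, and reads shared with such copies could be split in ways the deposited values do not show.

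Among the pyruvate and lactate genes Pdk1 and Slc16a3 fell at 3 h and rose again by 6 h in both genotypes. Pdk1, the kinase that inhibits pyruvate dehydrogenase (chr2:71873174-71903843), read 30.3 and 30.4 FPKM in SB in WT lines, 17.7 and 19.8 FPKM at 3 h, and 26.7 and 26.9 FPKM at 6 h. The null lines read 30.5 and 31.4 FPKM in SB, 17.6 and 18.0 FPKM at 3 h, and 24.3 and 25.1 FPKM at 6 h. The 3 treatments did not overlap across the 12 libraries, with 3 h lowest and SB highest. Pdk1 fell at 3 h by 0.67 on the log2 scale in WT lines (SE 0.0609, limma adjusted p = 0.00023) and by 0.77 in null lines (adjusted p = 0.00017). From 3 to 6 h it rose by 0.49 (adjusted p = 0.0070) and 0.46 (adjusted p = 0.0085). At 6 h it was still lower than SB in null lines (-0.31, adjusted p = 0.014), and in WT lines the change was -0.18 (adjusted p = 0.080, or 0.032 with the block).

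Slc16a3, the lactate exporter MCT4, read 77.04 and 64.2 FPKM in SB in WT lines, 46.8 and 43.3 FPKM at 3 h, and 69.2 and 66.8 FPKM at 6 h. The corresponding null values were 56.7 and 56.9 FPKM in SB, 35.8 and 38.1 FPKM at 3 h, and 49.6 and 53.3 FPKM at 6 h. The 3 h libraries were the lowest of each genotype, and at 6 h the WT libraries overlapped SB. Slc16a3 fell at 3 h by 0.63 on the log2 scale in WT lines (limma adjusted p = 0.0025) and by 0.61 in null lines (adjusted p = 0.0044). From 3 to 6 h it rose by 0.58 (adjusted p = 0.015) and 0.47 (adjusted p = 0.027). Its relative Slc16a1, the MCT1 carrier, read 31.8 to 38.5 FPKM and was slightly above SB in all 4 lines at both times. It was not called, with changes of 0.05 to 0.13, except with the block in null lines at 3 h (adjusted p = 0.049).

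Over all members, 3 rose and 1 fell between 3 and 6 h in WT lines, where 1.22% and 1.31% of all genes did. In null lines 3 rose and 0 fell, against 2.78% and 1.86% of all genes, and 4 members were below their 3 h level at an unadjusted limma p under 0.05, as 8.96% of all genes were. The 3 that rose were Pdk1, Slc16a3 and P4ha1 in both genotypes. The fit with the block gave 6 calls in WT lines and 8 in null lines, where 6.64% and 13.4% of all genes were called. With any 1 line left out, 0 members were called in null lines, and 0 in WT lines without line 18 or without line 26, where 0% of all genes were called. The gene that fell from 3 to 6 h in WT lines was Ldhb, the heart-type lactate dehydrogenase (log2 -0.31, limma adjusted p = 0.036). Against SB Ldhb was not called at 3 h (-0.02 in WT lines, and -0.20 in null lines with adjusted p = 0.054, or 0.011 with the block) and fell at 6 h by 0.33 in WT lines (adjusted p = 0.0094) and by 0.38 in null lines (adjusted p = 0.0050). In null lines the steps from 3 to 6 h of Slc2a1 (-0.24, limma adjusted p = 0.11), Ldhb (-0.18, adjusted p = 0.12) and Ddit4 (-0.38, adjusted p = 0.079) were called with the block only (adjusted p = 0.030, 0.033 and 0.0079), as was that of Ddit4 in WT lines (-0.33, adjusted p = 0.15, or 0.016 with the block).

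Pdk2, another kinase of pyruvate dehydrogenase, read 4.07 and 4.62 FPKM in SB in WT lines, 2.60 and 2.39 FPKM at 3 h, and 2.44 and 2.22 FPKM at 6 h. The levels in null lines 25 and 39 were 2.83 and 2.92 FPKM in SB, 2.94 and 1.98 FPKM at 3 h, and 1.71 and 3.01 FPKM at 6 h. The WT libraries in SB stood above all others, and the null lines moved in opposite directions at each time. In WT lines it fell by 0.61 (SE 0.187, limma adjusted p = 0.047, or 0.060 with the block) at 3 h and by 0.68 (adjusted p = 0.041) at 6 h. The locus covers a share of 0.033 of the annotated gene, so the value stands for a small piece of it.

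**Figure D3:**
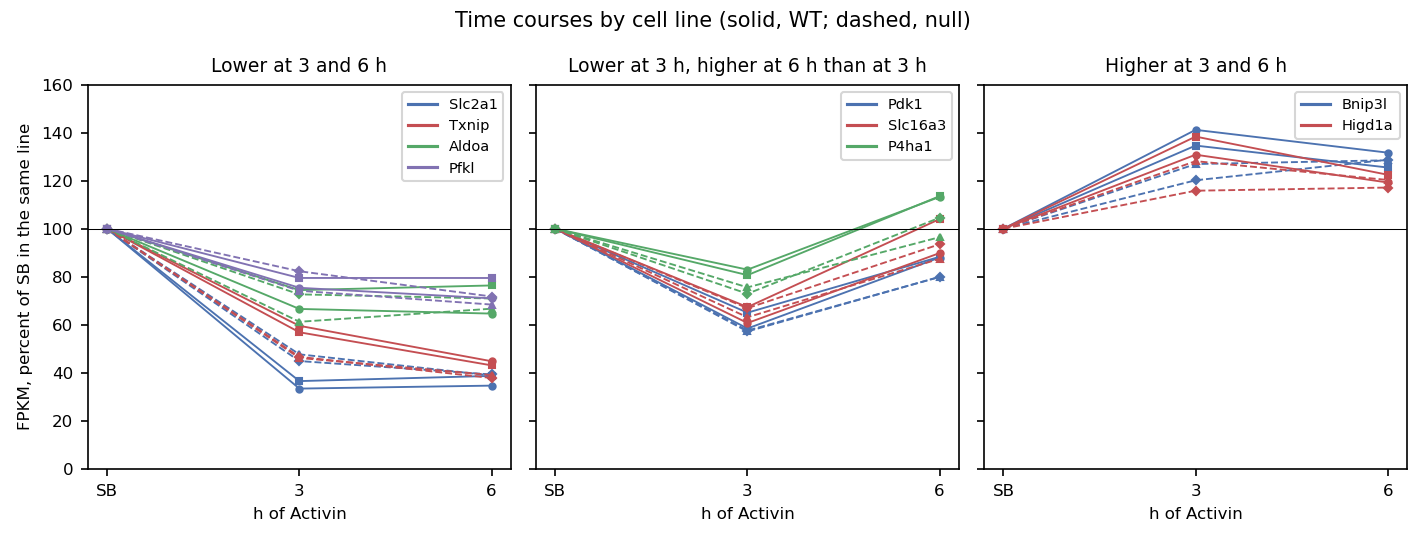
FPKM as a percentage of SB in the same line, at SB, 3 h and 6 h of Activin, with solid lines for WT and dashed lines for null cell lines. Slc2a1, Txnip, Aldoa and Pfkl stay below 100% at both times, Pdk1, Slc16a3 and P4ha1 are lowest at 3 h, and Bnip3l and Higd1a stay above 100% in all 4 lines.

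None of the 3 oxygen-sensing members was called against SB. Of all genes 22.5% and 15.9% were called in WT lines at 3 and 6 h, and 13.6% and 13.4% in null lines. Hif1a, the oxygen-regulated subunit of HIF-1, read 25.0 to 32.2 FPKM and was below SB in all 4 lines at both times. Its change was -0.21 in WT lines at 3 h (limma adjusted p = 0.058, or 0.026 with the block) and -0.06 to -0.16 elsewhere. Its locus is shared with Gm15283, which averaged 186 FPKM. Egln1 and Egln3, the prolyl hydroxylases that mark HIF for degradation, read 1.98 to 2.81 and 2.70 to 4.95 FPKM. Egln3 was below SB in all 4 lines at 3 h and above SB in all 4 at 6 h. Its step from 3 to 6 h in null lines was 0.44 (adjusted p = 0.056, or 0.033 with the block).

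The hypoxia targets did not move as 1 group, with log2 changes from -0.43 to 0.46 in WT lines at 3 h. Of the 11 tested, 2 fell in WT lines at 3 h and 1 at 6 h, beside 9.83% and 6.31% of all genes. In null lines 2 fell at each time, beside 7.14% and 5.53%. Limma called 0 higher, where 12.6% and 9.59% of all genes rose in WT lines and 6.50% and 7.87% in null lines. Counts this near the shares are no result about these targets. Ero1l, an oxidase of the endoplasmic reticulum, fell in all 4 comparisons, by 0.43 and 0.29 in WT lines (adjusted p = 0.0053 and 0.029) and by 0.49 and 0.34 in null lines (adjusted p = 0.0042 and 0.019). P4ha1, a collagen prolyl hydroxylase, read 7.12 and 6.81 FPKM in SB in WT lines, 5.91 and 5.50 FPKM at 3 h, and 8.06 and 7.74 FPKM at 6 h. The null lines read 7.83 and 7.72 FPKM in SB, 5.92 and 5.63 FPKM at 3 h, and 7.55 and 8.07 FPKM at 6 h. It fell at 3 h by 0.25 in WT lines (limma adjusted p = 0.033) and by 0.37 in null lines (adjusted p = 0.011), and rose from 3 to 6 h by 0.41 (adjusted p = 0.021) and 0.38 (adjusted p = 0.022). At 6 h the WT libraries were above SB and the null libraries were to either side of it. Ddit4, an inhibitor of mTORC1 signalling, fell in null lines at 6 h by 0.43 (adjusted p = 0.031), and in WT lines the change was -0.19 (adjusted p = 0.22, or 0.019 with the block).

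Of the other hypoxia targets Bnip3l, Higd1a and Bnip3 read above SB in all 4 lines at both times, and limma called none of the 3. Counted for each time by itself, 27.3% of all genes were above SB in all 4 lines at 3 h and 32.5% at 6 h. The share above SB at both times was not counted. Bnip3l, a receptor that marks mitochondria for removal, read 60.3 and 64.4 FPKM in SB in WT lines, 85.1 and 86.7 FPKM at 3 h, and 79.4 and 80.8 FPKM at 6 h. Lines 25 and 39, the null lines, had 69.3 and 88.8 FPKM in SB, 88.0 and 107 FPKM at 3 h, and 89.1 and 114 FPKM at 6 h. The WT groups did not overlap, and null line 39 was higher than line 25 in every treatment. The log2 changes were 0.46 and 0.36 in WT lines (limma adjusted p = 0.055 and 0.12) and 0.30 and 0.36 in null lines (adjusted p = 0.20 and 0.13). With the line as a block all 4 were called, with adjusted p of 0.00065 and 0.0016 in WT lines and 0.0042 and 0.0017 in null lines.

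Higd1a, a small protein of the mitochondrial inner membrane, read 39.0 and 36.5 FPKM in SB in WT lines, 51.0 and 50.5 FPKM at 3 h, and 46.5 and 44.7 FPKM at 6 h. The 2 null lines, 25 and 39, read 41.2 and 52.9 FPKM in SB, 52.7 and 61.3 FPKM at 3 h, and 49.5 and 62.0 FPKM at 6 h. Again the WT groups were apart and null line 39 was above line 25. Its changes of 0.42 and 0.27 in WT lines and 0.28 and 0.24 in null lines had limma adjusted p of 0.056, 0.19, 0.19 and 0.25, and with the block 0.0014, 0.0064, 0.0073 and 0.010. Bnip3, the close relative of Bnip3l, read 98.3 and 109 FPKM in SB in WT lines, 111 and 118 FPKM at 3 h, and 131 and 127 FPKM at 6 h. Null lines 25 and 39 read 102 and 161 FPKM in SB, 116 and 163 FPKM at 3 h, and 129 and 202 FPKM at 6 h. At 6 h it was above SB by 0.31 in WT lines (limma adjusted p = 0.41, or 0.0096 with the block) and by 0.33 in null lines (adjusted p = 0.40, or 0.0090 with the block). At 3 h its changes were 0.14 and 0.10, and under quantile normalization -0.06 and -0.01. The Bnip3 locus is shared with RP24-285L8.3, which averaged 81.8 FPKM. These libraries of line 39 are also those with the highest summed FPKM, and the part of that sum in the result was not tested.

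The remaining targets were low and not called. Ankrd37, an ankyrin-repeat gene, read 4.56 and 3.28 FPKM in SB in WT lines, 4.94 and 4.73 FPKM at 3 h, and 5.73 and 5.14 FPKM at 6 h. The levels in null lines 25 and 39 were 3.52 and 3.63 FPKM in SB, 5.94 and 3.25 FPKM at 3 h, and 5.55 and 6.68 FPKM at 6 h. Its change at 6 h was 0.40 in WT lines (limma adjusted p = 0.24) and 0.63 in null lines (adjusted p = 0.081). Ndrg1, a stress-response gene, read 5.17 and 2.09 FPKM in SB in WT lines 18 and 26, 5.23 and 2.03 FPKM at 3 h, and 1.39 and 2.44 FPKM at 6 h. The corresponding null values were 3.87 and 3.86 FPKM in SB, 3.97 and 3.07 FPKM at 3 h, and 2.03 and 3.69 FPKM at 6 h. The large mean change of -0.61 in WT lines at 6 h came from line 18, and line 26 moved the other way. Vegfa, the vascular growth factor, read 2.11 to 3.38 FPKM, P4ha2 2.90 to 4.22 FPKM and Mxi1, an antagonist of MYC, 3.78 to 5.71 FPKM. Kdm3a, the histone demethylase left out of the test, read 18.0 FPKM in SB in WT line 18 and 18.0 and 18.1 FPKM in null lines. At 3 h it read 15.7 and 15.7 FPKM in WT lines and 14.5 and 15.9 FPKM in null lines, and at 6 h 14.1 and 13.2 FPKM and 13.0 and 13.3 FPKM. In the 3 lines with an SB value it was lower at 3 h and lowest at 6 h.

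Loss of Arkadia left the responses of these genes without a called difference. The test of the difference between genotypes in the response gave 0 calls among members and 0% among all genes at 3 h and at 6 h in limma, and with the block 0 members and 0.0234% of all genes at 3 h and 0 members at 6 h. At an unadjusted p under 0.05 there were 1 and 0 members at 3 and 6 h, beside 5.1% and 2.98% of all genes, and 5 and 2 with the block, beside 12.4% and 5.58%. The 1 was Slc2a1 at 3 h, whose fall was 0.40 smaller in null lines on the log2 scale (95% interval 0.15 to 0.64, limma adjusted p = 0.73, or 0.25 with the block). Pdk2 differed most of all members, by 0.43 at 3 h and 0.45 at 6 h, without an unadjusted limma p under 0.05. For Txnip at 3 h the difference was -0.32 (95% interval -0.71 to 0.07, adjusted p = 0.93), the fall being larger in null lines. For Pdk1 it was -0.10 (95% interval -0.29 to 0.10) and for Slc16a3 0.02 (95% interval -0.26 to 0.31). These intervals, without adjustment for the number of genes, leave room for differences of the sizes printed, so alike responses are not shown.

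**Figure D4:**
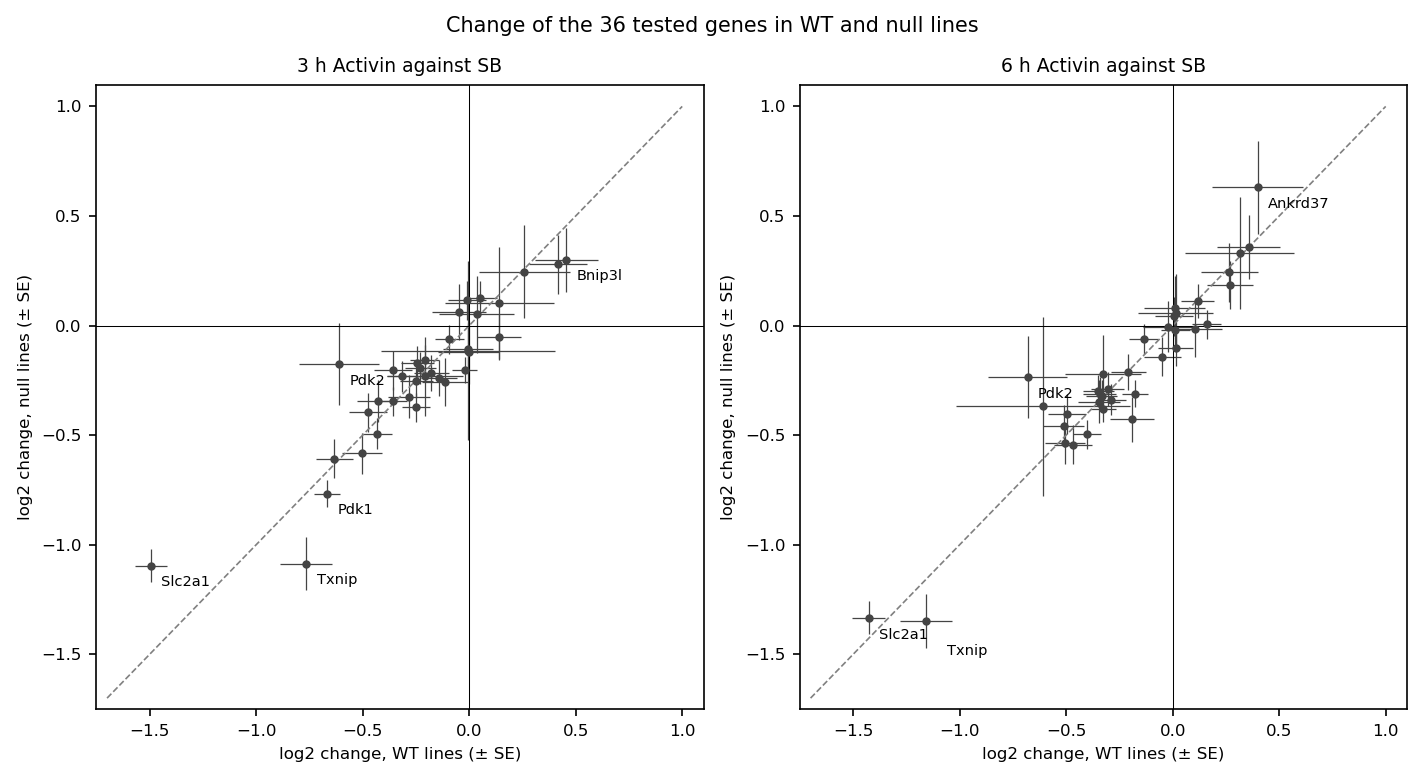
Log2 change of each of the 36 tested genes in WT lines (horizontal) and null lines (vertical), at 3 h (left) and 6 h (right), with standard errors from limma and a dashed line where both are equal. Most genes lie near the dashed line. At 3 h Slc2a1 lies above it (-1.49 in WT and -1.10 in null lines) and Txnip below it (-0.76 and -1.09). Pdk2 lies farthest above it at both times (-0.61 in WT and -0.18 in null lines at 3 h, -0.68 and -0.23 at 6 h).

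Levels were compared between genotypes at each treatment and over line means. Limma called 0 members in SB, at 3 h, at 6 h and on the means of the 3 libraries of each line, where 0.312%, 0.382%, 0.211% and 0% of all genes were called. At an unadjusted p under 0.05 there were 7, 4, 7 and 3 members, beside 14.9%, 12.9%, 14.7% and 13.3% of all genes. The largest differences over line means were those of Slc2a3, higher in null lines by 0.34 (95% interval 0.14 to 0.55, limma adjusted p = 0.26), Slc16a3, lower by 0.33 (adjusted p = 0.26), and Bnip3, higher by 0.30 (95% interval -0.20 to 0.80, adjusted p = 0.50). For Slc2a3 both null libraries were above both WT libraries in each treatment, and for Slc16a3 both were below. In SB 7 members were above and 14 below in this sense, against 24.5% and 22.6% of all genes. Bnip3 differed more between the null lines than between genotypes. With line 25 left out, so that line 39 alone stood for the genotype, Bnip3, Bnip3l, Higd1a, Slc2a3 and Txnip were called higher than WT in SB, and Bnip3, Bnip3l and Higd1a at 6 h and on line means. Of all genes 12.4%, 9.47% and 7.41% were called higher in these fits. Bnip3 in SB was then higher by 0.63 (limma adjusted p = 0.0071).

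Genes beside the list came from 7 further lists of the same pathways. Those with at least 1 FPKM in at least 2 libraries were tested. Their counts stand beside the shares of all genes, of which 12.6% rose and 9.83% fell in WT lines at 3 h and 9.59% and 6.31% at 6 h, and 6.50% and 7.14%, then 7.87% and 5.53%, in null lines. No list was tested against all genes, and counts near these shares are no result about a list. Of 18 other glycolysis enzymes and glucose transporters, 1 rose and 2 fell in WT lines at 3 h and 1 rose and 3 fell at 6 h, and in null lines 1 rose and 3 fell, then 1 rose and 2 fell. Tigar, a phosphatase that holds glycolysis back, rose in all 4 comparisons by 0.32 to 0.44 (limma adjusted p from 0.0057 to 0.022). Gpd2, the mitochondrial glycerol phosphate dehydrogenase, fell in all 4 by 0.39 to 0.73 on the log2 scale (adjusted p from 0.0011 to 0.022).

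Of 12 tested genes of the pyruvate dehydrogenase complex and the pyruvate carriers, 2 rose and 1 fell in WT lines at 3 h. In WT lines at 6 h and in null lines at 6 h 1 rose and 0 fell, and in null lines at 3 h 1 rose and 1 fell. The gene that rose in each was Mpc1, which forms the mitochondrial pyruvate carrier with Mpc2. Mpc1 read 15.1 and 17.5 FPKM in SB in WT lines, 40.1 and 36.4 FPKM at 3 h, and 26.2 and 24.4 FPKM at 6 h. The null lines read 18.5 and 22.3 FPKM in SB, 33.8 and 38.2 FPKM at 3 h, and 29.0 and 31.4 FPKM at 6 h. Its libraries were highest at 3 h, where Pdk1 and Slc16a3 were lowest. Mpc1 rose by 1.18 (limma adjusted p = 0.00028) and 0.61 (adjusted p = 0.0097) in WT lines and by 0.79 (adjusted p = 0.0039) and 0.55 (adjusted p = 0.016) in null lines. From 3 to 6 h it fell in WT lines by 0.57 (adjusted p = 0.036), and in null lines the step was -0.24 (adjusted p = 0.24). The Mpc1 locus is also listed for 4930506C21Rik. Mpc2 rose in WT lines at 3 h by 0.46 (adjusted p = 0.023), and in null lines the change was 0.34 (adjusted p = 0.074).

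Of 13 tested oxygen-sensing factors 4 rose in WT lines at 3 h, among them Tceb1 (0.63, limma adjusted p = 0.027), a subunit of the ligase that degrades HIF, and Epas1, which encodes HIF-2 alpha (0.43, adjusted p = 0.022). In null lines Tceb1 rose at both times (0.60 and 0.59, adjusted p = 0.040 and 0.046) and Epas1 at 3 h (0.36, adjusted p = 0.049). Epas1 read 0.753 to 1.59 FPKM. At 6 h 0 rose and 1 fell in WT lines, and in null lines 2 rose and 0 fell at each time. Of 32 other hypoxia targets 5 rose and 4 fell in WT lines at 3 h and 4 rose and 0 fell at 6 h, and in null lines 3 rose and 3 fell, then 4 rose and 1 fell. Bhlhe40, a transcriptional repressor of the clock, rose in all 4 comparisons, from 0.388 to 0.616 FPKM in SB to 1.60 to 2.40 FPKM in Activin, by 0.87 to 1.16 (adjusted p from 0.00024 to 0.0012). The kinase gene Pim1 also rose in all 4, by 0.71 to 0.85 (adjusted p from 0.0051 to 0.0091). Kdm4c, a histone demethylase, was lowest at 3 h in both genotypes, as Pdk1 was. It fell at 3 h by 0.32 in WT lines (adjusted p = 0.0075) and by 0.41 in null lines (adjusted p = 0.0038), and rose from 3 to 6 h by 0.34 (adjusted p = 0.022) and 0.43 (adjusted p = 0.0082).

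Of 13 tested genes of the MYC network and the arrestin-domain family, to which Txnip belongs, 3 rose and 1 fell in WT lines at 3 h, 3 rose and 2 fell at 6 h, and in null lines 3 rose and 0 fell, then 2 rose and 2 fell. Myc, which is known to drive glycolytic genes, rose by 0.51 and 0.79 in WT lines (limma adjusted p = 0.0053 and 0.00054) and by 0.62 and 0.65 in null lines (adjusted p = 0.0032 and 0.0020). Mycn fell in WT lines by 0.55 and 0.41 (adjusted p = 0.0037 and 0.015) and in null lines at 6 h by 0.33 (adjusted p = 0.037), its change at 3 h being -0.14 (adjusted p = 0.30). Arrdc3, a paralog of Txnip, fell at 6 h by 0.43 in WT lines (adjusted p = 0.038) and by 0.48 in null lines (adjusted p = 0.030), after changes of -0.29 and -0.37 at 3 h (adjusted p = 0.10 and 0.065). Arrdc2, of the same family, went the other way in WT lines. It rose there by 0.43 and 0.32 at 3 and 6 h (limma adjusted p = 0.011 and 0.036). Its changes in null lines were 0.28 and -0.04 (adjusted p = 0.061 and 0.76). Of 25 nutrient-signalling genes 2 rose and 3 fell in WT lines at 3 h, and 0 rose and 3 fell at 6 h. In null lines 2 rose and 1 fell, then 0 rose and 5 fell. Sesn2, an inhibitor of mTORC1 signalling, fell at 6 h by 0.66 in WT lines (adjusted p = 0.00095) and by 0.62 in null lines (adjusted p = 0.0017), and at 3 h by 0.28 in WT lines (adjusted p = 0.034), with a change of -0.07 in null lines (adjusted p = 0.56). Of 10 genes of the pentose phosphate and hexosamine pathways 0 rose and 2 fell in WT lines at 3 h and 0 changed at 6 h, where 1 had an unadjusted limma p under 0.05 beside 35% of all genes. In null lines 1 rose and 3 fell, then 0 rose and 1 fell. Pgd, which makes NADPH in the pentose phosphate pathway, fell in WT lines at 3 h by 0.24 (adjusted p = 0.032) and in null lines by 0.32 and 0.26 (adjusted p = 0.015 and 0.032).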

How the data were processed

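Poly(A) RNA of 12 cultures was fragmented and primed with random hexamers, per the labels' protocols. The authors' deposited values are FPKM per locus and library with a status flag, per the file headers, and mm10 is the build that the submitters' processing notes name. Aligner, quantifier and strand setting: not given in the sources used here. Read counts were not used, and the depth behind a value is unknown. Every FPKM column belonged to a sample. Of 17446 loci, 2666 had no gene name. The 27 loci with a status other than OK in any library were left out of the tests, as was a gene with fewer than 2 libraries of at least 1 FPKM. Where a symbol had several loci, the one with the highest mean was used.

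log2(FPKM + 1) was fitted with limma 3.58.1 in R 4.3.3 (6 group means, mean-variance trend, 6 residual degrees of freedom), and Benjamini-Hochberg adjustment ran over 12823 genes for each of the 12 comparisons. The fit was tested on simulated data. Genotypes were also compared on 1 mean per line. The libraries of a number come from the same cell line, so the lines pair the treatments. Deviations of a line's libraries from their group means correlated at 0.0165 to 0.0537 in WT and 0.246 to 0.349 in null lines, and a fit with the line as a block was run beside the main one. Of the 37 genes, 4 lie on a locus covering less than 50% of the annotated gene (Pfkp, Pfkfb3, Pdk2, Ankrd37). A locus is shared with another gene for 9 of the 37, so that reads may be split between them. These are Hk1, Gpi1, Pfkm, Pfkp, Hif1a, Bnip3, Ankrd37, Ndrg1 and Mxi1. Promoters came from RefSeq (GRCm38.p6), where 33 of the 37 genes had an entry.

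Values in every library are given for the 12 genes with the largest change and the 3 with the largest difference between genotypes; P4ha1, Bnip3l, Higd1a, Kdm3a and Mpc1 were added after their values were seen. Members and lists were chosen with earlier results of these data known.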

Additional observations from a re-analysis of the deposited data

How the results depend on the processing

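Of the 61 called changes of members, 55 were called under each alternative that kept all lines (a pseudocount of 0.1, no filter, a filter at 5 FPKM, quantile normalization, median-ratio scaling, FPKM summed over loci, and the block), where the gene was tested. None of the 61 called changes changed sign in any alternative, while 9 of the 18 uncalled changes of named members did. Under quantile normalization the changes of Bnip3 at 3 h were -0.060 in WT and -0.014 in null lines, and under median-ratio scaling that of Ndrg1 in WT lines at 3 h was 0.0019. With each line left out, the changes that changed sign ran from -0.15 to 0.056 for Slc16a3 in WT lines at 6 h, from -0.39 to 0.039 and from -0.50 to 0.034 for Pdk2 in null lines at 3 and 6 h, from -0.12 to 0.62 for Ankrd37 in null lines at 3 h, and for Ndrg1 from -0.029 to 0.016 and from -1.37 to 0.15 in WT lines at 3 and 6 h and from -0.26 to 0.027 in null lines at 3 h. The replicate block, with the cell line as a term, gave 19 called members in place of 10 in null lines at 3 h, beside 29.5% of all genes, and 8 in place of 3 between 6 and 3 h in null lines, beside 13.4%. It ended 1 call, that of Pdk2 in WT lines at 3 h, and beside the calls named above as gained with the block it changed no other call. The block could not be fitted for levels between genotypes, since each line has 1 genotype. Quantile normalization gave 17 called members in null lines at 3 h, beside 16.1% of all genes. The cause of these shifts was not tested. With each line left out in turn, the called members ranged from 1 to 20 in WT lines at 3 h (1.07% to 34% of all genes), from 1 to 19 at 6 h (0.694% to 30.4%) and from 0 to 5 between these times (0% to 3.56%). In null lines they ranged from 4 to 13 (1.9% to 16%) at 3 h and from 3 to 12 (2.99% to 13.9%) at 6 h, and were 0 throughout between these times (0%). Between genotypes they ranged from 0 to 5 in SB (0% to 16%), from 0 to 3 at 6 h (0% to 11.8%) and from 0 to 3 on line means (0% to 9.3%), the calls of members all coming without null line 25. With 2 lines per genotype, small changes of low genes such as Hk1, Egln1, Vegfa and Ndrg1 were not detectable, and their values do not show that these genes stayed level.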

Other observations

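Parts of 2 enzymes absent from the named rows appeared as unnamed loci on X. Within the annotated Pgk1 gene, which encodes phosphoglycerate kinase, a locus of 543 bases read 161 and 154 FPKM in SB in WT lines 18 and 26, 156 and 155 FPKM at 3 h, and 164 and 152 FPKM at 6 h. In null lines 25 and 39 it read 156 and 189 FPKM in SB, 122 and 161 FPKM at 3 h, and 140 and 179 FPKM at 6 h. Within Pdha1, the longest of 7 unnamed loci, of 1948 bases, read 39.4 to 47.7 FPKM over the 12 libraries.

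The row named Ldha covers 661 bases, a share of 0.047 of the annotated gene. It read 0.953, 2.62 and 1.54 FPKM in SB and at 3 and 6 h in null line 25, and 0 to 0.204 FPKM in the other lines, so it does not stand for the level of the enzyme's transcript.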
